A study of Mus musculus with 4 samples.

Results

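C1q-high macrophages without Tgfbi were taken from the CD45-positive immune cells of mouse MC38 colorectal tumours as cells rich in complement C1q transcripts that held no transcript of the matrix protein gene Tgfbi. A cell was a member when its summed C1qa, C1qb and C1qc UMIs (unique molecular identifiers, each standing for 1 captured transcript) reached 20 per 10000, when it had 0 Tgfbi and 0 Ncr1 UMIs, and when it had at most 1 UMI each of the summed Cd3 genes, of Cd79a and of the summed cycle genes Mki67, Top2a and Pclaf. Of 39906 filtered cells, 636 were members, with 168 and 111 in the Trim25 cKO libraries cKO-1 and cKO-2 and 183 and 174 in the WT libraries WT-1 and WT-2. The measured levels of these 12 genes chose the members, so they are given as description and not as findings. Cells that passed the same gates but held at least 1 Tgfbi UMI numbered 4083 and served as the closest comparison.

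The tumours were grown under the skin of conditional Trim25 knockout (cKO) mice and of wild type (WT) mice that were 8 weeks old when MC38 cells were injected. The title places the loss of Trim25 in T cells, and the labels used here give neither the driver of the deletion nor the deleted exons. The labels list the tissue as colon and the cells as a tumour line, while the design describes CD45-sorted cells, and the list of 12 fibroblast or tumour genes summed to 55.4 and 67.0 counts per 1000000 UMIs (CPM) in cKO and 50.9 and 46.0 CPM in WT members, with Lum, Krt8, Krt18, Timp3 and Postn at 0 in every library. There were 2 libraries per genotype, and the labels do not tie them to different animals, so every p-value here reflects variation among these libraries only, possibly of technical origin.

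C1q is the recognition molecule of the classical complement pathway, assembled from the products of C1qa, C1qb and C1qc, and tissue macrophages are a main source of it. In tumours, C1q-positive macrophages are known for the uptake of dying cells, lysosomal degradation, lipid handling through Apoe and Trem2, and antigen presentation. Tgfbi encodes a secreted adhesion protein of the extracellular matrix that monocytes and many macrophages make.

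The members were shallow cells. Their median depth was 985 and 1221 UMIs per cell in cKO-1 and cKO-2 and 945 and 994 UMIs in WT-1 and WT-2, against 3175, 5332, 3699.5 and 3981 UMIs in the Tgfbi-retaining macrophages of the same 4 libraries and 8258, 10017, 7795.5 and 7864 UMIs in all filtered cells. Over all libraries the median member held 999 UMIs and 653.5 genes, and 545 members (85.7%) lay under 2000 UMIs. The C1q gate therefore rested on a median of 5 and 6 C1q UMIs per cell in the cKO libraries and 4 and 5 in the WT libraries. Members with 2 or fewer C1q UMIs numbered 43 and 27 in the cKO and 58 and 49 in the WT libraries.

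The share of C1q-high cells with no Tgfbi UMI dropped steeply with depth. It was 48.9% of 653 cells between 500 and 1000 UMIs (exact 95% binomial interval 45.0% to 52.8%), 22.6% of 1002 cells between 1000 and 2000 UMIs, 6.69% of 1241 cells between 2000 and 5000 UMIs (5.36% to 8.22%) and 0.439% of 1823 cells with 5000 or more UMIs (0.190% to 0.863%). These intervals cover counting error only. Only 8 members had 5000 or more UMIs. In cells that did hold Tgfbi, its level was 2502 and 2333 CPM in the cKO and 2396 and 2251 CPM in the WT libraries, that is, a few transcripts in a cell of 1000 UMIs. That level leaves out the cells with 0 Tgfbi UMIs. Over all C1q-high non-cycling cells between 500 and 1000 UMIs, Tgfbi had 12.9 and 13.3 UMIs per 10000 in cKO. In WT it had 12.1 and 10.8. When all C1q-high cells with at least 2000 UMIs were thinned at random to 2000 UMIs, 7.62% and 6.67% had no Tgfbi UMI in the cKO libraries and 6.65% and 8.21% in the WT libraries, where the unthinned shares of the same cells were 3.36% and 2.62%, against 2.55% and 3.36%. Around the Tgfbi gate, 181 and 107 cells of the cKO and 141 and 187 cells of the WT libraries held exactly 1 Tgfbi UMI and so fell just outside. Around the C1q gate, 16 and 11 cKO and 28 and 30 WT members lay between 20 and 25 C1q UMIs per 10000, and 61 and 39 cKO and 101 and 69 WT cells lay just outside, between 15 and 20.

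**Figure D1:**
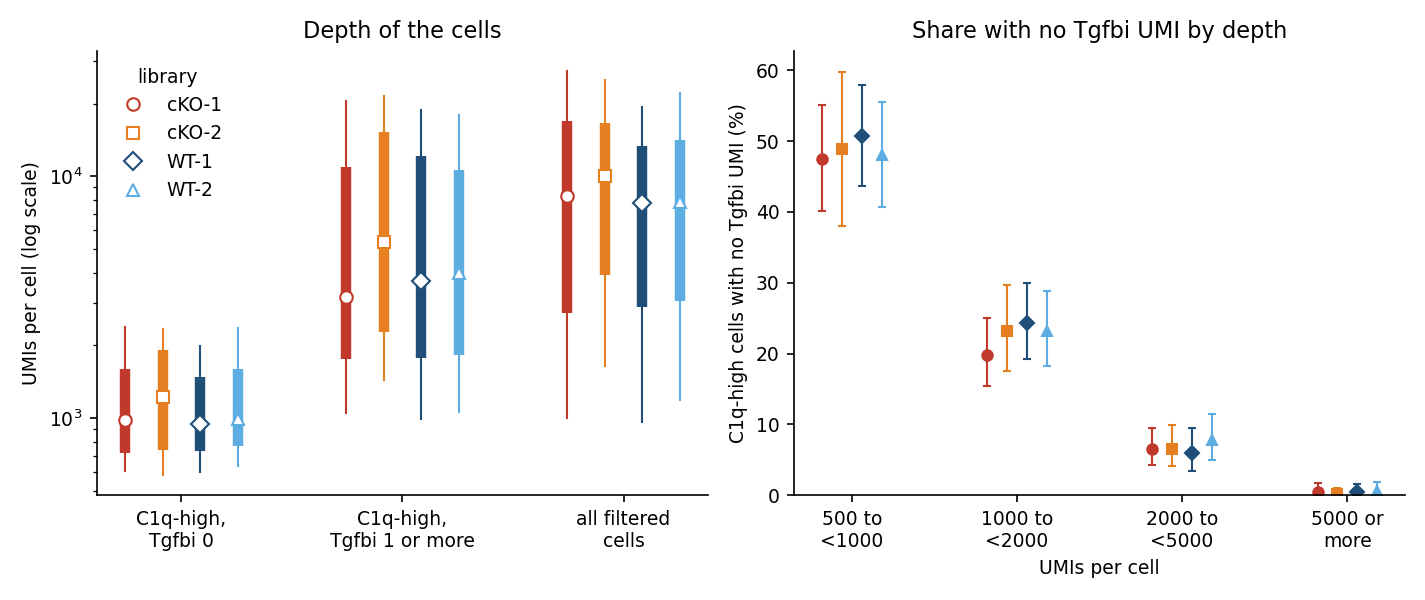
Left, UMIs per cell (log scale) of C1q-high cells with 0 Tgfbi UMIs, of those with 1 or more and of all filtered cells, by library (symbol: median; thick bar: middle quartiles; thin line: 10th to 90th percentile). Right, percent of C1q-high non-cycling cells with no Tgfbi UMI by depth, with exact 95% binomial intervals; all 4 libraries go from about 48.9% overall in the shallowest cells to 0.439% in the deepest.

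The label was checked against the markers at equal depth, since shallow cells show any gene less often. After each cell was thinned to 500 UMIs, C1qc was found in 60.1% and 63.1% of cKO and 66.7% and 60.9% of WT members. In T cells of the same libraries (3 or more summed Cd3 UMIs), which should lack C1q and whose median depth before thinning was 8026 UMIs or more in each library, C1qc was found in 12.3% and 13.7% of cKO and 11.7% and 10.4% of WT cells. Apoe, the lipoprotein of lipid-loaded macrophages, was found in 55.4% and 53.2% of cKO and 59.0% and 58.0% of WT members, against 17.8%, 17.5%, 15.4% and 18.0% of T cells. All 4 libraries lay far above the T cell level for both genes, of which C1qc was part of the gate. Some T cells also reached the C1q cut of 20 per 10000. In the depth bin starting at 1000 UMIs, these were 16.7% and 11.9% of 30 and 42 cKO T cells. In WT they were 6.06% and 13.9% of 33 and 72 T cells. At 5000 or more UMIs the shares were 15.9% and 15.9% in cKO and 9.73% and 11.3% in WT. How far C1q RNA of other cells helped members to pass the gate was not tested.

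The other markers followed the same order at lower levels. Cd72, an inhibitory receptor of B cells and macrophages, was found in 25% and 23.4% of cKO and 20.2% and 19.5% of WT members, against 6.08%, 4.50%, 4.39% and 4.23% of T cells. Acp5, the tartrate-resistant acid phosphatase of lysosomes, was found in 14.3% and 12.6% of cKO and 7.65% and 12.6% of WT members, against 3.04%, 2.54%, 2.65% and 2.60% of T cells. Ccl12, a monocyte-attracting chemokine, was found in 23.8% and 19.8% of cKO and 24.0% and 16.7% of WT members, against 8.90%, 8.75%, 7.62% and 7.88% of T cells. C1qc was part of the gate, so its share was fixed by the choice of cells and says nothing on the label. The other 4 markers, which the gate did not use, were each more frequent in members than in T cells in every library. The T cells were deeper before thinning, and shallow barcodes low in C1q were not compared for these markers. The same 4 markers did not set members apart from Tgfbi-retaining macrophages thinned alike. There Apoe, Cd72 and Ccl12 were more frequent than in members in every library, and Acp5 varied in direction. Ccl12, for one, was found in 32.0% and 31.9% of cKO and 28.0% and 29.3% of WT Tgfbi-retaining cells. Before thinning the members' shares were higher, for example 81.0% and 82.0% of cKO and 82.0% and 81.6% of WT members for C1qc.

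**Figure D2:**
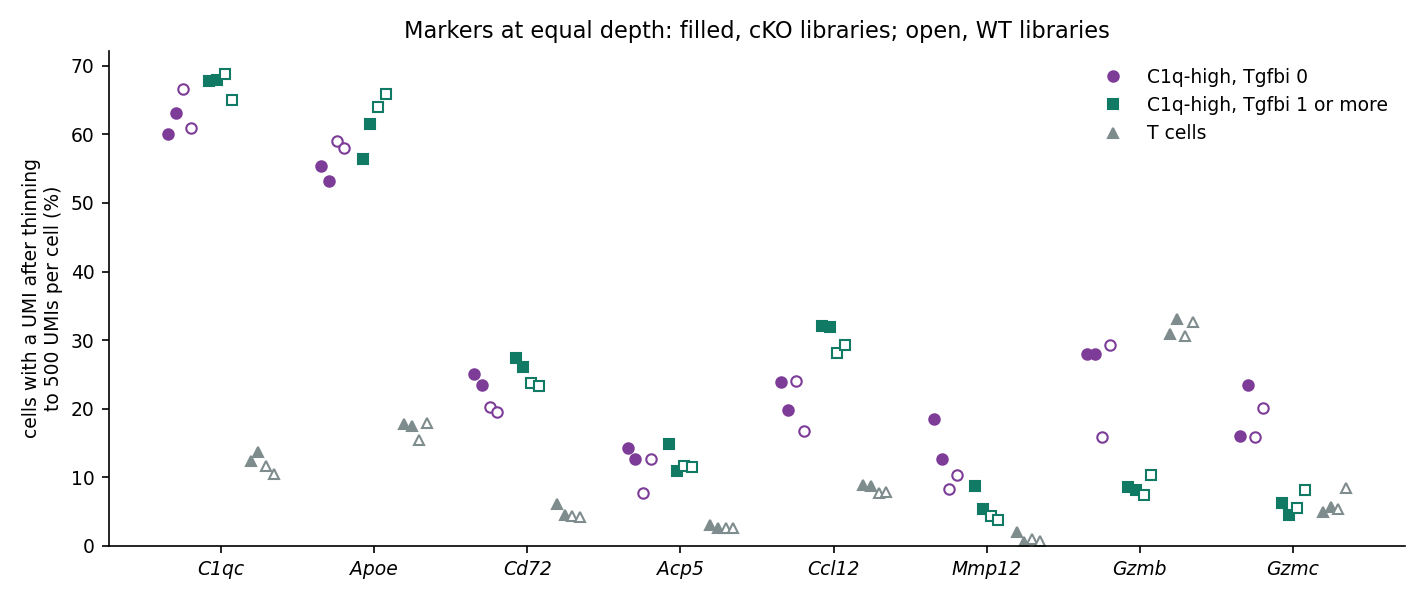
Percent of cells with a UMI of each gene after thinning every cell to 500 UMIs, per library (filled: cKO; open: WT), in members, in Tgfbi-retaining C1q-high macrophages and in T cells. The 5 marker genes on the left stand above T cells in both macrophage classes (C1qc 60.1% to 66.7% in members). In members, Gzmb and Gzmc stand above the Tgfbi-retaining cells, which were deeper before thinning.

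C1qb and C1qc lie next to each other on chromosome 4, C1qb at chr4:136880129-136886187 and C1qc at chr4:136889804-136893065, both protein coding and on the minus strand (GENCODE vM21, GRCm38). Their promoters are shown because these transcripts define the cells. Each runs from 250 bases before to 50 bases after the start, in the direction of transcription, from RefSeq on GRCm38.p6, and C1qa had no entry in that table. Capitals mark matches on either strand to GAGGAA, the core bound by PU.1, the myeloid master regulator encoded by Spi1. C1qb, chr4:136886151-136886450, and C1qc, chr4:136892865-136893164, both minus strand, held 1 match each. Of 32851 promoters of the same 300 bases, 28.3% held GAGGAA, so the matches describe the sequences and nothing more.
C1qb: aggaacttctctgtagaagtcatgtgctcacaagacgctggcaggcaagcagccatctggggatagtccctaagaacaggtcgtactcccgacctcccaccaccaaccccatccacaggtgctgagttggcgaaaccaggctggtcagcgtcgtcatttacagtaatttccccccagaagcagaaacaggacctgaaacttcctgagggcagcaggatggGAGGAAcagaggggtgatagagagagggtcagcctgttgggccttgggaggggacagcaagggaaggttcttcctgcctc
C1qc: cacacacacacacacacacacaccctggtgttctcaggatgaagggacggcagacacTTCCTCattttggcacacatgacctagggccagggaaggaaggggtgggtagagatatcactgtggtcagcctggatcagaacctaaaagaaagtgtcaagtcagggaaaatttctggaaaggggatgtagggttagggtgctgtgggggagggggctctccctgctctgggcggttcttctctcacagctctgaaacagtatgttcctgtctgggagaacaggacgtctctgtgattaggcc

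Members made up 2.05% and 1.18% of filtered cells in the cKO libraries and 1.79% and 1.44% in the WT libraries, or 1.62% ± 0.61 and 1.61% ± 0.25 (SD, n = 2 each). The libraries overlapped and the difference of 0.0004 percentage points gave p = 1 (exact permutation test, two-sided; with 2 against 2 libraries the smallest possible p is 0.33). At equal depth, the share of C1q-high macrophages without a Tgfbi UMI was 7.14% ± 0.68 in cKO and 7.43% ± 1.10 in WT (SD, n = 2 each), a difference of -0.28 percentage points with p = 1 by the same exact test. Without thinning the shares were 11.7% ± 2.63 in cKO and 15.2% ± 0.74 in WT, a difference of -3.44 percentage points that did not overlap between genotypes but reached only the smallest possible p of 0.33. The lowest share was that of cKO-2, whose Tgfbi-retaining cells were the deepest. No difference between genotypes was detectable in either share with 2 libraries each.

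RNA of other cell types was measurable in the members and moved with depth. The 10 NK cell genes summed to 1139 and 1579 CPM in cKO and 1463 and 1418 CPM in WT members, against 301 and 235 CPM in cKO and 253 and 264 CPM in WT Tgfbi-retaining macrophages, with Ncr1 at 0 by the gate. Below 1000 UMIs the list averaged 2385 ± 581 CPM in members and 1607 ± 139 CPM in Tgfbi-retaining cells (SD, n = 4 libraries). The 10 T cell genes summed to 355 and 262 CPM in cKO and 394 and 427 CPM in WT members, against 57.3 and 49.2 CPM in cKO and 44.4 and 67.9 CPM in WT Tgfbi-retaining macrophages, and none of the list was at 0. T cells themselves held 3088 to 3680 CPM of that list. The C1q macrophage list, which includes the 3 C1q genes of the gate, summed to 9556 ± 889 CPM in members below 1000 UMIs and 18344 ± 1262 CPM between 1000 and 2000 UMIs. The gate genes C1qa, C1qb and C1qc gave 1234, 1814 and 1698 CPM of the first sum.

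Granzyme transcripts were the clearest case. Gzmb, the main cytotoxic protease of killer lymphocytes, was found after thinning in 28.0% and 27.9% of cKO and 15.8% and 29.3% of WT members, against 8.61% and 8.18% of cKO and 7.42% and 10.3% of WT Tgfbi-retaining macrophages. T cells had it in 30.9%, 33.1%, 30.6% and 32.6% of cells. The Tgfbi-retaining cells were deeper before thinning. Against Tgfbi-retaining cells of the same library and depth bin, the Gzmb log2 ratio of members was 0.73 ± 0.17, with depth inside a bin not equalised. Without regard to depth it was 2.95 ± 0.35 (SD, n = 4). Gzmc, a granzyme of activated killer cells, was found in 16.1% and 23.4% of cKO and 15.8% and 20.1% of WT members and in 4.97% and 5.70% of cKO and 5.30% and 8.37% of WT T cells. For Gzmb the members of cKO-1, cKO-2 and WT-2 sat near T cells, while those of WT-1 lay between Tgfbi-retaining macrophages and T cells. For Gzmc all 4 libraries of members lay above their T cells. The part of lymphocyte RNA in the members' other values was not tested.

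As found, without regard to depth, the gene with the largest ratio of members to Tgfbi-retaining macrophages was Usp29, a ubiquitin protease gene. It stood at 641 and 67.0 CPM in cKO and 1578 and 636 CPM in WT members, against 35.2 and 2.08 CPM in cKO and 77.6 and 32.5 CPM in WT Tgfbi-retaining cells. It was found in shallow barcodes of every kind. Among cells under 1000 UMIs it averaged 1852 ± 1231 CPM in members, 1674 ± 1534 CPM in Tgfbi-retaining macrophages and 1925 ± 1792 CPM in all other cells, and it averaged 4.05 ± 8.11 CPM in members between 2000 and 5000 UMIs (SD, n = 4). Rhod and A230057D06Rik behaved alike, with 204 ± 151 and 147 ± 104 CPM in members below 1000 UMIs and 4.20 ± 8.39 and 0 CPM between 2000 and 5000 UMIs. For this reason the ratios of members to Tgfbi-retaining macrophages given next were taken only within the same depth bins. The expected value of a gene came from Tgfbi-retaining cells of the same library and bin. The interaction test, given later, summed cells of all depths.

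Depth-matched ratios are descriptions without a test, because the members were chosen on values of the same cells. Depth was matched by bin only, and members may still be shallower inside a bin. Of 3424 genes at 50 CPM or more, 296 were higher and 424 lower in members in all 4 libraries, with Tgfbi left out. Mmp12, the macrophage metalloelastase, stood at 943 and 1193 CPM in cKO and 310 and 349 CPM in WT members, against 451 and 320 CPM in cKO and 173 and 228 CPM in WT Tgfbi-retaining cells at matched depth, a mean log2 ratio of 1.09 ± 0.55 (SD, n = 4). Fabp5, a fatty acid binding protein, had 496 and 583 CPM in cKO and 741 and 610 CPM in WT members, against 266, 227, 357 and 319 CPM at matched depth, a log2 ratio of 1.05 ± 0.20. All 4 libraries of members lay above their matched values for both genes.

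Further genes higher in members were Hmox1, the heme-degrading oxygenase, at 0.94 ± 0.56, Arg1, arginase, at 0.87 ± 0.57, the sheddase Adam8 at 0.97 ± 0.51 and the growth arrest gene Gadd45a at 0.95 ± 0.31 (log2 ratio, SD, n = 4). Il7r, a lymphocyte cytokine receptor, was at 0.84 ± 0.42, while Gzmc and Gzmd reached 0.81 ± 1.01 and 1.48 ± 1.94 with most of the ratio in cKO-2. Of the 76 Gzmd UMIs in cKO-2 members, 50 came from 1 cell. Lower in members were the peptide transporter Tap1 at -0.90 ± 0.16, complement factor B (Cfb) at -0.87 ± 0.56, the BMP receptor Bmpr2 at -0.94 ± 0.31, the guanine exchange factor Fgd4 at -1.10 ± 0.97 and the survivin gene Birc5 at -0.94 ± 0.79.

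**Figure D3:**
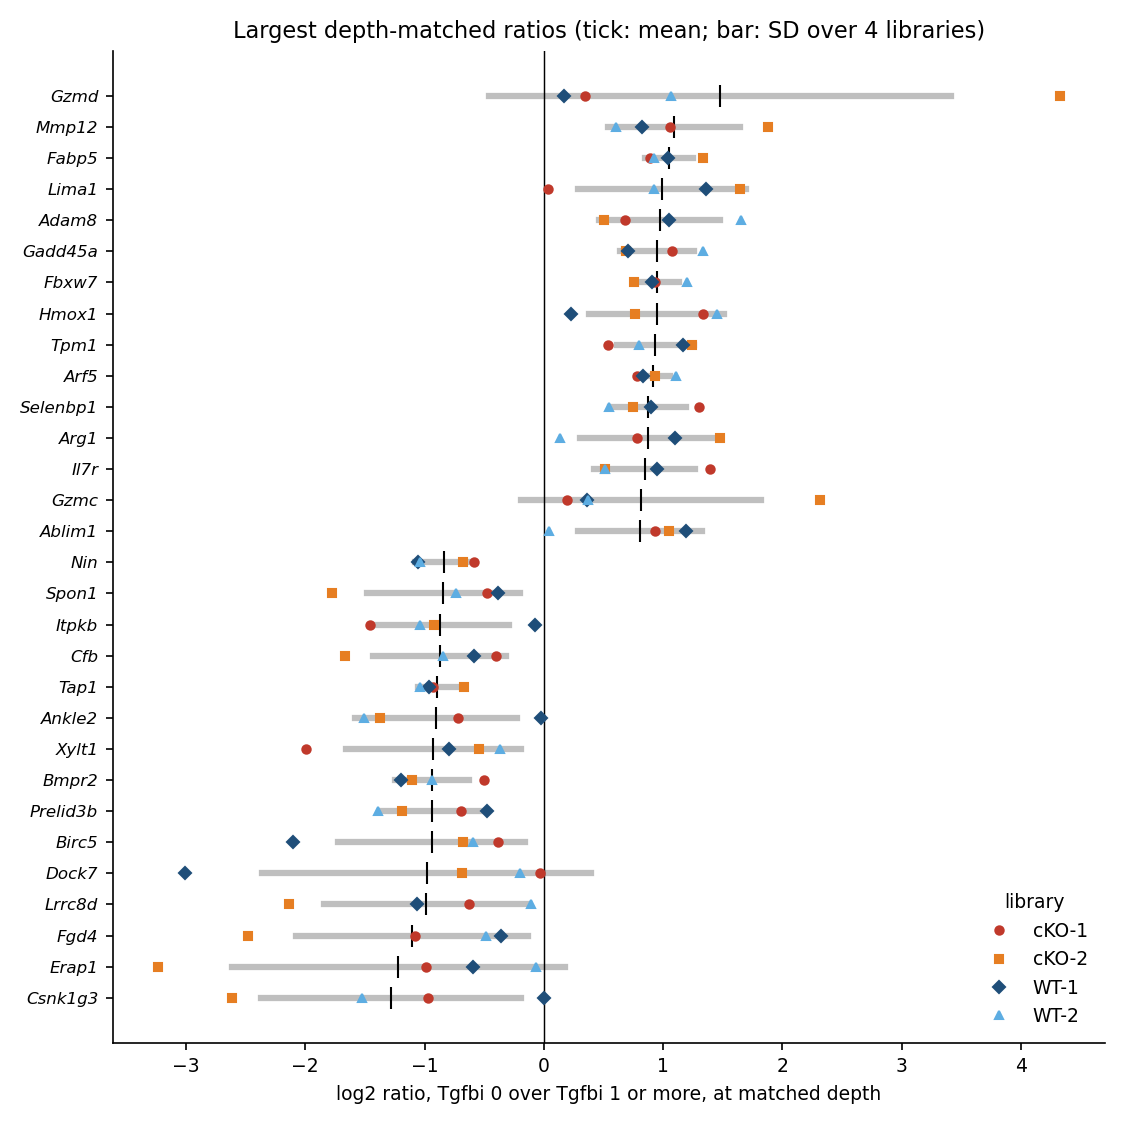
Log2 ratio of members over Tgfbi-retaining C1q-high macrophages at matched depth for the 15 genes with the largest ratio in each direction, per library; the tick is the mean and the grey bar the SD over 4 libraries. Fabp5 (1.05 ± 0.20) and Tap1 (-0.90 ± 0.16) vary little between libraries, whereas Gzmd (1.48 ± 1.94) rests on cKO-2, where 1 cell held 50 of 76 UMIs.

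Grouped by role, more iron and glycolysis genes were higher than lower in members at matched depth, where 296 of all 3424 genes were higher and 424 lower in all 4 libraries. Of 6 iron and heme genes at 50 CPM or more, 4 were higher in all 4 libraries and 0 lower, and the list summed to 34486 and 28316 CPM in cKO and 22297 and 21906 CPM in WT members, against 20499, 21318, 18753 and 17883 CPM at matched depth. The ferritin genes carry that sum, Ftl1 at a log2 ratio of 0.56 ± 0.27 and Fth1 at 0.34 ± 0.21; Ftl1 has near-identical pseudogene copies, so its count is uncertain. Of 17 glycolysis and hypoxia genes, 11 were higher in all 4 libraries and 1 lower, among them Tpi1 at 0.46 ± 0.22, Gapdh at 0.39 ± 0.14, Pkm at 0.33 ± 0.17 and the mitophagy gene Bnip3 at 0.54 ± 0.34. The lipid droplet coat gene Plin2 was at 0.60 ± 0.23. The median over all 3424 genes was -0.03.

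In the lists of antigen presentation, Fc receptors and complement, more genes were lower than higher in members. MHC class II genes were lower in all 4 libraries for 7 of 8 measured genes, with H2-Ab1 at -0.57 ± 0.28, H2-Aa at -0.44 ± 0.31 and the invariant chain Cd74 at -0.40 ± 0.27. Of 17 Fc receptor and immunoreceptor genes, 9 were lower in all 4 libraries, including Fcgr4 at -0.43 ± 0.21, Fcgr1 at -0.32 ± 0.21 and Cd72 at -0.48 ± 0.18. Of 7 complement genes outside the gate, 5 were lower, among them properdin (Cfp) at -0.51 ± 0.31 and the C3a receptor C3ar1 at -0.32 ± 0.24. Of 21 macrophage receptors, 12 were lower and 2 higher. Of 10 C1q macrophage markers that chose no cell, 6 were lower and 1 higher in all 4 libraries, with a median of -0.33. Csf1r was at -0.34 ± 0.26 and Acp5 at -0.36 ± 0.23, against Apoe at 0.02 ± 0.24, Trem2 at 0.27 ± 0.27 and Cd68 at 0.19 ± 0.11.

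A few transcripts came from very few cells. Retnla, the alternative activation marker, had 260 of its 261 member UMIs in 1 cell of WT-2, and the globin gene Hbb-bs had 148 of 164 in 1 cell of cKO-2, where the erythroid list reached 1377 CPM.

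Genotype was tested on UMIs summed over the members of each library, 216764 and 164076 UMIs in cKO-1 and cKO-2 and 235752 and 239129 UMIs in WT-1 and WT-2. Trim25 itself, at chr11:88999376-89020293 (plus strand), had 96.9 and 110 CPM in cKO and 102 and 146 CPM in WT members, from 21, 18, 24 and 35 UMIs, and the libraries overlapped (log2 fold change -0.21 ± 0.36, adjusted p = 0.97, edgeR quasi-likelihood test with Benjamini-Hochberg adjustment). In T cells, the cells named in the title, it had 85.2 and 89.4 CPM in cKO and 89.6 and 95.8 CPM in WT. These are tags from the 3' end, which may lie outside the deleted part, so they check no label. Vsir, which encodes VISTA, had 69.2 and 122 CPM in cKO and 89.1 and 121 CPM in WT members.

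Of 3767 genes tested in members, 1 passed an adjusted p of 0.05, which is 0.0265%: Mmp12 was higher in cKO. The count at an unadjusted p under 0.05 was 248 genes (6.58%), and DESeq2 also called 1 gene. Mmp12, a secreted elastase that macrophages use to cut elastin and other matrix proteins, had 1269 and 1109 CPM in cKO members and 310 and 318 CPM in WT members. The genotypes did not overlap. Its log2 fold change was 1.99 ± 0.23 (SE), adjusted p = 0.000492. The UMIs were 275 and 182 in cKO and 73 and 76 in WT, spread over 45 and 19 cKO cells and 19 and 26 WT cells, and the fullest cell held 15.3% and 24.2% of the UMIs in cKO and 21.9% and 13.2% in WT. Thinned to 500 UMIs, 18.5% and 12.6% of cKO and 8.20% and 10.3% of WT members had an Mmp12 UMI, again without overlap, against 2.0%, 0.570%, 0.969% and 0.705% of T cells.

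The Mmp12 difference was found in the deeper members. Between 500 and 1000 UMIs the level was 316 and 234 CPM in cKO and 194 and 282 CPM in WT, and the libraries overlapped. Between 1000 and 2000 UMIs it was 1313 and 1029 CPM in cKO and 255 and 433 CPM in WT. Between 2000 and 5000 UMIs it was 1102 and 1939 CPM in cKO and 601 and 302 CPM in WT, from 24 and 21 cKO and 16 and 22 WT cells. In members with 2000 or more UMIs the log2 fold change was 2.34 with an adjusted p of 0.19 by edgeR, so the call is lost there while the size is not.

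**Figure D4:**
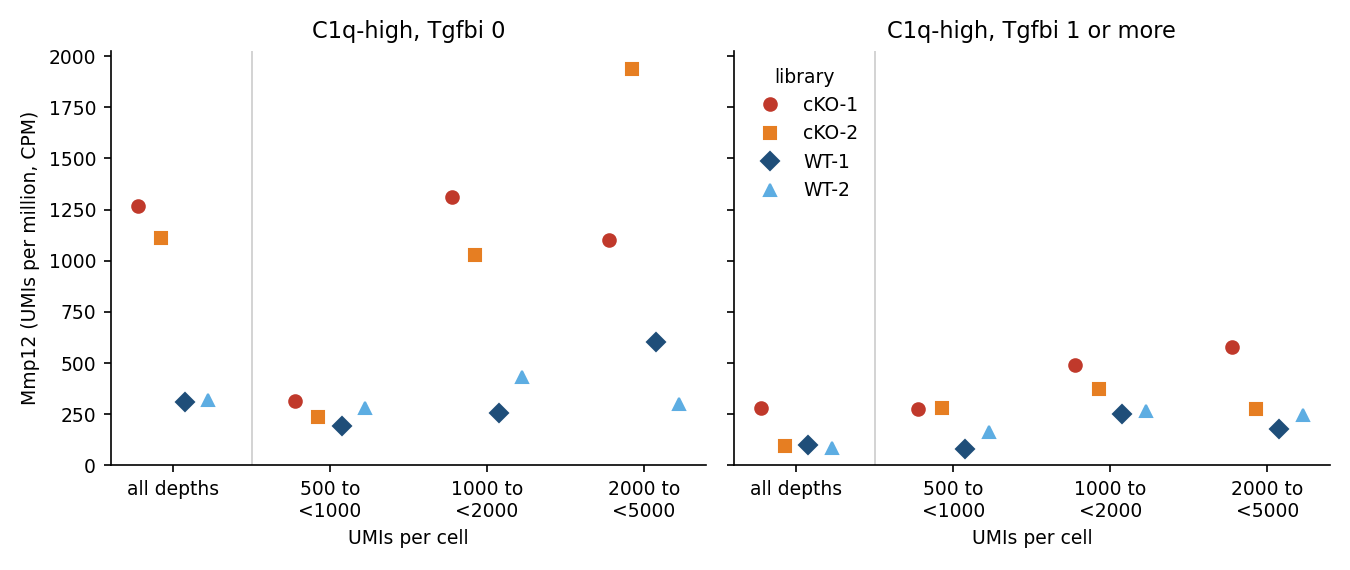
Mmp12 level (CPM) per library in members (left) and Tgfbi-retaining C1q-high macrophages (right), for all cells and by UMIs per cell. In members of all depths the cKO libraries sit at 1269 and 1109 CPM and the WT libraries at 310 and 318 CPM; below 1000 UMIs the genotypes overlap.

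Mmp12 lies at chr9:7344381-7369499 on the plus strand (GENCODE vM21, GRCm38), and the 3' counts do not tell its transcript starts apart. RefSeq lists 2 starts on GRCm38.p6, and both promoters are shown because Mmp12 is the gene that passed. Capitals mark the PU.1 core, here read on the other strand, in the upstream one and TGANTCA, the AP-1 site, which reads the same on both strands, in the downstream one; no other match to the PU.1 or AP-1 letters is present. The upstream window is chr9:7344147-7344446 and the downstream window chr9:7347124-7347423, both plus strand, and 7.81% of all promoters held the AP-1 letters.
Mmp12, upstream start: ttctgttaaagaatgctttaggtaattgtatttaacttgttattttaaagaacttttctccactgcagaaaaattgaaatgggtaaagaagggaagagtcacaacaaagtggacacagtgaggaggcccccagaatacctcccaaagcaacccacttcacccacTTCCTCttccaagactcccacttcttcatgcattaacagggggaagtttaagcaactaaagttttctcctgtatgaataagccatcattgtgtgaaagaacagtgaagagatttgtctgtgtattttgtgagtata
Mmp12, downstream start: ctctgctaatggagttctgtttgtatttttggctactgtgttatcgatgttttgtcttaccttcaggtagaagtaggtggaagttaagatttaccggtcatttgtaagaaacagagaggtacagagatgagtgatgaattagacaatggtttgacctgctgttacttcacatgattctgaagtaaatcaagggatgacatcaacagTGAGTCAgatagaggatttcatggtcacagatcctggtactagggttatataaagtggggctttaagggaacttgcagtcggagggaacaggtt

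No pathway list held another called gene, and the lists are described by their counts beside those over all 3767 genes, of which 49.1% had a log2 fold change above 0, 13.7% had both cKO libraries above both WT libraries and 22.5% had both below, with a median of -0.01. Glycolysis and hypoxia genes were above 0 for 17 of 18 tested, with a median of 0.52, and for 12 of 18 the genotypes did not overlap. They summed to 10431 and 8417 CPM in cKO and 6312 and 6344 CPM in WT members. Gapdh had 1587 and 1341 CPM in cKO and 848 and 920 CPM in WT (0.80 ± 0.21, adjusted p = 0.547), Pkm 1356 and 1097 against 780 and 757 CPM (0.75 ± 0.22, adjusted p = 0.553), and Gpi1, the phosphoglucose isomerase, 567 and 396 against 208 and 301 CPM (1.00 ± 0.28, adjusted p = 0.547; edgeR throughout). None passed. Below 1000 UMIs the list summed to 5187 and 4948 CPM in cKO and 4979 and 4449 CPM in WT; between 1000 and 2000 UMIs to 10938 and 10346 CPM in cKO and 6534 and 8910 CPM in WT. In Tgfbi-retaining macrophages the same list had a median of 0.36.

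Iron and heme genes were above 0 for 5 of 7, with a median of 0.60, and 3 had both cKO libraries above both WT libraries. Another 2, the heme-binding protein gene Hebp1 (-0.22) and the iron regulatory protein gene Ireb2 (-0.79), had both cKO libraries below both WT libraries. Fth1, the ferritin heavy chain, had 20308 and 16407 CPM in cKO and 12653 and 12211 CPM in WT members (0.63 ± 0.17, adjusted p = 0.547 by edgeR), and Ftl1, the light chain, had 13116 and 10654 CPM in cKO and 7601 and 8385 CPM in WT (0.64 ± 0.18, adjusted p = 0.547). Both genes had genotypes that did not overlap and neither passed. Fth1 also moved with depth, at 7347 CPM in cKO and 7878 CPM in WT members below 1000 UMIs with overlapping libraries, and 19681 CPM in cKO and 15509 CPM in WT between 1000 and 2000 UMIs.

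Lysosome and cathepsin genes were above 0 for 17 of 20 (median 0.35, 9 without overlap and higher in cKO, 2 without overlap and lower, Ctsc and Laptm5), MHC class I genes for 11 of 12 (median 0.26, 5 without overlap) and ribosomal proteins for 20 of 20 (median 0.24, 10 without overlap). The cysteine protease Ctsb had 3294 and 2359 CPM in cKO and 2206 and 2091 CPM in WT members (0.47 ± 0.21, adjusted p = 0.71 by edgeR). Prosaposin (Psap) had 2399 and 2609 CPM in cKO and 2074 and 1844 CPM in WT (0.42 ± 0.19, adjusted p = 0.71). B2m, the light chain of MHC class I, had 14712 and 13786 CPM in cKO and 12034 and 12332 CPM in WT (0.29 ± 0.16, adjusted p = 0.79). None of these genes passed.

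Monocyte genes leaned the other way, with 2 of 17 above 0, a median of -0.39 and 9 without overlap. Lyz2, lysozyme, had 2284 and 2139 CPM in cKO and 2638 and 3408 CPM in WT members (-0.39 ± 0.20, adjusted p = 0.76 by edgeR). Chil3, a chitinase-like protein of monocytes, had 148 and 152 CPM in cKO and 322 and 230 CPM in WT (-0.81 ± 0.29, adjusted p = 0.71). Of the 20 type I interferon genes tested, 5 were above 0 (median -0.21) and 6 had both cKO libraries below both WT libraries, such as the interferon-induced Ifit2 with 175 and 408 CPM in cKO and 428 and 519 CPM in WT (-0.67 ± 0.31, adjusted p = 0.74). Complement genes outside the gate and MHC class II genes had medians of 0.08 and -0.07, with genotypes that did not overlap for 1 of 8 and 2 of 9 of them.

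**Figure D5:**
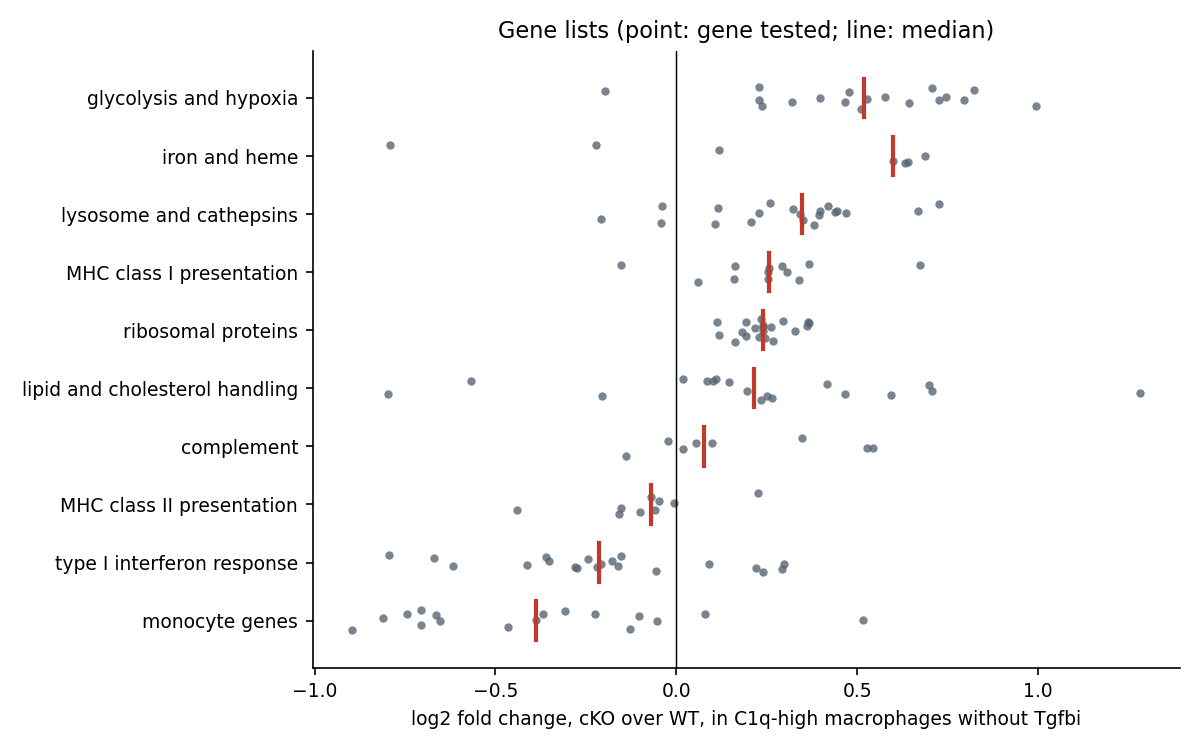
Log2 fold change, cKO over WT, of each tested gene (points) of 10 gene lists in members, with the list median (red line). The medians run from 0.60 for iron and heme and 0.52 for glycolysis and hypoxia to -0.39 for monocyte genes; none of the genes shown passed the threshold.

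Of the genes with the smallest p after Mmp12, those higher in cKO were Igf1r, the growth factor receptor, with 87.7 and 104 CPM in cKO and 17.0 and 4.18 CPM in WT (3.17 ± 0.61, adjusted p = 0.13 by edgeR), and the neutrophil chemokine Cxcl2 with 221 and 555 CPM in cKO and 153 and 46.0 CPM in WT (1.99 ± 0.44, adjusted p = 0.35). Igf1r rested on few cells, since 15 of 19 UMIs in cKO-1 and 13 of 17 in cKO-2 came from 1 cell each. The interleukin-1 antagonist Il1rn had 277 and 293 CPM in cKO and 165 and 92.0 CPM in WT (1.21 ± 0.31, adjusted p = 0.54). The rest were Fam162a (1.27), the lectin Clec4d (1.70), Fth1, Ftl1, Gapdh and Tpi1 (0.82). Lower in cKO were Il1r2, the decoy receptor of interleukin-1 (-1.45), the ubiquitin ligase Cblb (-1.47), the adaptor Nedd9 (-1.25), the signalling regulator Rgs2 with 507 and 609 CPM in cKO and 1277 and 824 CPM in WT (-0.85 ± 0.24, adjusted p = 0.553), Crk (-1.29), Etv6 (-1.09), Notch2 (-1.16), Brd7 (-1.45) and Stk10 (-1.35). None of these passed.

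Whether the genotype difference itself differed between members and Tgfbi-retaining macrophages was tested by an interaction term. The sums took in cells of all depths, and the Tgfbi-retaining cells were deeper. Class and depth therefore cannot be told apart in this test. Of 11824 genes, 9 passed an adjusted p of 0.05 (0.0761%), while 0 of 11709 genes (0%) passed for genotype within the Tgfbi-retaining cells alone by edgeR. Mmp12 had 280 and 93.9 CPM in cKO and 97.6 and 83.5 CPM in WT Tgfbi-retaining macrophages (1.05 ± 0.37, adjusted p = 0.997). Its interaction was 1.11 ± 0.23 (log2, adjusted p = 0.00321), a larger difference in members with depth not matched. It was no longer called without cKO-2 (0.49, adjusted p = 0.99) or without WT-1 (0.90, adjusted p = 0.67). At matched depth the Tgfbi-retaining cells also showed higher Mmp12 in both cKO libraries, 451 and 320 CPM against 173 and 228 CPM in WT.

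Member libraries also did not overlap between genotypes for Il1r2, Cd14, Igf1r and G0s2, of which the first 3 encode receptors. For G0s2 the members of cKO-1 held only 3 UMIs, against 2 in WT-1 and 1 in WT-2. Il1r2 had 60.0 and 79.2 CPM in cKO and 165 and 230 CPM in WT members, but 227 and 173 CPM in cKO and 143 and 94.4 CPM in WT Tgfbi-retaining macrophages, an interaction of -2.24 ± 0.34 (adjusted p = 4.76e-07). In WT-2, 37 of its 55 member UMIs came from 1 cell, and without cells holding T cell or NK cell marker UMIs the interaction was -0.69 (adjusted p = 1). Cd14, the lipopolysaccharide co-receptor, had 106 and 146 CPM in cKO and 250 and 188 CPM in WT members, against 209 and 257 CPM in cKO and 147 and 182 CPM in WT Tgfbi-retaining cells (-1.24 ± 0.30, adjusted p = 0.0476). The Cd14 call was lost in 5 of 8 alternatives, among them without cKO-1 (adjusted p = 0.225), without cKO-2 (0.288), without WT-1 (1) and with the replicate block (0.0717), at values of -1.58 to -0.95 over all 8. Igf1r gave 3.06 ± 0.69 (adjusted p = 0.0151) with the few cells named above, and its call was lost without cKO-2 (2.62, adjusted p = 0.332), without WT-1 (4.50, adjusted p = 0.0607) and without WT-2 (2.16, adjusted p = 0.864).

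For Spp1, Acod1, Gzmc and Ptgs2 the member libraries overlapped between genotypes. Spp1, osteopontin, had 286 and 1895 CPM in cKO and 331 and 577 CPM in WT members, and 256 of its 311 UMIs in cKO-2 came from 1 cell; its interaction was 1.34 ± 0.22 (adjusted p = 1.61e-05) and reversed without cKO-2 (-0.36). Acod1, the itaconate enzyme, had 83.0 and 524 CPM in cKO and 161 and 29.3 CPM in WT (1.63 ± 0.31, adjusted p = 0.000618), Gzmc had 332 and 1091 CPM in cKO and 284 and 464 CPM in WT (1.17 ± 0.24, adjusted p = 0.00321), and G0s2 had 13.8 and 347 CPM in cKO and 8.48 and 4.18 CPM in WT (4.43 ± 1.00, adjusted p = 0.0151), each highest in cKO-2. In cKO-2 the summed neutrophil list, which holds Acod1 and G0s2, was 1243 CPM, against 175 CPM in cKO-1 and 734 and 75.3 CPM in WT. Ptgs2, the inducible cyclooxygenase, had 69.2 and 165 CPM in cKO and 344 and 66.9 CPM in WT (-1.50 ± 0.31, adjusted p = 0.00321), and 64 of its 81 UMIs in WT-1 came from 1 cell. The Ptgs2 call was lost without cKO-1 (-1.08) and without WT-1 (-0.46). For Acod1, 51 of 86 UMIs in cKO-2 came from 1 cell, and the call was lost without cKO-2 (0.26) and without WT-2 (0.93), over a range of 0.26 to 3.10 in 8 alternatives. For G0s2, 32 of 57 UMIs in cKO-2 came from 1 cell, and the call was lost without cKO-2 (0.15) and without WT-2 (-0.25). The Gzmc call was lost without cKO-2 (0.26), without WT-1 (1.13) and without WT-2 (1.14).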

How the data were processed

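CD45-positive cells sorted from MC38 tumours were profiled by droplet single-cell RNA sequencing in 4 libraries, 2 per genotype. The authors deposited raw UMI counts (whole numbers, 32285 genes by barcode). The submitters' processing notes name Cell Ranger, STAR and mm10, without versions; the annotation was not given in the sources used here. Total depth was 101176581 and 115111783 UMIs in cKO and 96751399 and 127449324 UMIs in WT libraries, in 8533 to 12318 barcodes each. Barcodes shared by a pair of libraries numbered 42 to 59, and 11 members had a barcode that also occurs in another library.

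The cell filter required 500 UMIs, 300 genes and no more than 15% mitochondrial UMIs. Scrublet in scanpy 1.11.5 marked 0 cells at its automatic threshold, so no doublets were removed, and leaving out scores above 0.2 is an alternative. Counts were summed per library and compared by the quasi-likelihood test of edgeR 4.0.16 (R 4.3.3) after TMM scaling, with genes kept by filterByExpr (minimum count 10, total 15) and a Benjamini-Hochberg threshold of 0.05; the interaction fit has library as a term. A permuted difference of shares was tested exactly. Depth-matched ratios set member UMIs beside those expected from Tgfbi-retaining cells of the same library and depth bin (from 500, 1000 and 2000 UMIs up to 5000), with a prior count of 1. CPM are per 1000000 UMIs of the summed cells. The test script was checked on simulated data. Gene positions come from GENCODE vM21 (32158 of 32285 features matched by ID).

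Named genes are those of 26 pathway and 12 cell type lists, up to 15 genes per direction by size of ratio between classes at 50 CPM or more, the 10 smallest p per direction for genotype since fewer passed, and all called interactions. Of 540 list genes, 4 were not analysed here (Clec7a, Mx1, Mx2 and Ero1a). Some genes that the rule would name are not reported here. The members and lists were chosen with earlier results of these data known. Alternatives were DESeq2 1.42.0, its size factors, no low-count filter, a replicate block, each library left out, and other gates on depth, C1q, doublet score and mitochondrial share. Members without any UMI of the T cell and NK cell lists were tested as an alternative chosen after seeing the data.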

Additional observations from a re-analysis of the deposited data

Results flagged for a closer look

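For 9 genes the genotype difference in C1q-high macrophages without Tgfbi differed from that in Tgfbi-retaining macrophages by the interaction test of edgeR (adjusted p under 0.05). The Tgfbi-retaining cells were deeper and depth was not matched, so class and depth cannot be told apart there. The interaction on the log2 scale was 1.11 for Mmp12, -2.24 for Il1r2, -1.24 for Cd14, 3.06 for Igf1r and 4.43 for G0s2, whose member libraries did not overlap between genotypes. The interaction was 1.34 for Spp1, 1.63 for Acod1, 1.17 for Gzmc and -1.50 for Ptgs2, whose member libraries overlapped. In Spp1, Ptgs2, Igf1r, Il1r2, Acod1 and G0s2, 1 cell held most of the UMIs of at least 1 library, and the part of such cells in the interaction was not tested.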

How the results depend on the processing

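Mmp12 was higher in cKO members under all 14 alternatives, with log2 fold changes of 1.65 to 2.61, and passed in all but the fit on members with 2000 or more UMIs (2.34, adjusted p = 0.190 by edgeR). The number of genes called was 1, against 20 with no filter on low counts, 0 with 2000 or more UMIs, 3 in members with no T cell or NK cell marker UMI and 8 to 29 with each library left out (29 without cKO-1, 8 without cKO-2, 11 without WT-1, 14 without WT-2); there the lone library is assumed to vary like the others. The interaction count of 9 became 1 without those marker UMIs and ranged from 4 to 23 with each library left out (23 without cKO-1, 6 without cKO-2, 4 without WT-1, 15 without WT-2). The replicate block gave 6 genes for genotype and 9 for the interaction. Deviations of same-numbered libraries had a correlation of -0.0047 over 3767 genes. From 2 libraries per genotype of shallow cells, this correlation cannot tell whether same-numbered libraries were processed together.

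The difference in the share of members, 0.0004 percentage points, became -0.375 with C1q at 10 or more, -0.0077 with 5000 or more UMIs, -0.024 without Scrublet scores above 0.2 and -0.228 at 8% mitochondrial UMIs, but 0.114 with C1q at 40 or more and 0.098 with 2000 or more UMIs (0.394 and 0.268% in cKO, 0.217 and 0.248% in WT), and ranged from -0.432 to 0.433 with each library left out. The Tgfbi-0 share at equal depth differed by -0.28, by -2.27 when thinned to 1000 UMIs, by -3.44 when not thinned, by -0.532 with C1q at 40 or more, by 0.039 when thinned to 5000 UMIs and by -1.07 to 0.497 with each library left out. Values that turned sign were Cxcl2 (-0.85) and Cblb (0.073) with C1q at 10 or more, the interactions of Spp1 (-0.36 without cKO-2, up to 2.54 without cKO-1) and G0s2 (-0.25 without WT-2, up to 7.31 without cKO-1), and those of Gzmc (-0.17) and Ptgs2 (3.46) without T cell or NK cell marker UMIs; the cause was not tested. Fits on members with 5000 or more UMIs were not run, as only 8 such cells exist. Depth limits all values, since the median member held 999 UMIs.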

Other observations

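Against all other filtered cells, as found and without a test, the largest ratios of members included Usp29 (4.42), Rhod (2.83) and A230057D06Rik (2.78), which were also found in shallow cells of other kinds, and several macrophage genes. The platelet factor gene Pf4, a chemokine of resident macrophages, averaged 331 CPM in members and 27.2 CPM in the other cells (log2 ratio 3.39 ± 0.07, SD, n = 4). Hmox1 was at 2.75 ± 0.47 and the lipid receptor gene Trem2 at 2.54 ± 0.24. The chemokine gene Ccl8, at 3.21 ± 1.89, was found in only 18 of 636 members, with all 32 UMIs of cKO-1 in 1 cell, and its ratio to Tgfbi-retaining macrophages at matched depth was -0.21 ± 2.35. Genes lower in members included the matrix proteoglycan Vcan, at -2.22, and the lymphocyte genes Cd8a, at -2.08, Xcl1, at -2.05, and Prf1, at -1.89. The other cells include the T and NK cells that the gates on Cd3 and Ncr1 kept out of the members. Against Tgfbi-retaining macrophages at matched depth, Cd8a was at -0.35 ± 0.54, Xcl1 at 0.23 ± 0.35 and Prf1 at 0.38 ± 0.34.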
